A study of Homo sapiens with 12 samples.

Results

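The genes described here encode the machinery that brings proteins into mitochondria, the translocases of the outer membrane (TOM) and inner membrane (TIM) with their sorting, chaperone, motor and processing partners. Members were all rows of the Huh7 expression table whose symbol begins with TIMM, TOMM, SAMM, MTX, PAM16, DNAJC19, GRPEL, PMPC, CHCHD4 or GFER and whose description does not name a pseudogene. Of the 60666 listed genes, 82 rows matched these symbols, 40 were pseudogenes, and 42 remained as members. Testing was limited to genes that reached 1 TPM in 3 or more libraries, a filter that 14394 genes and 38 members passed. The other 4 members, TOMM20L, TIMMDC1-DT, GRPEL2-AS1 and SAMMSON, had at most 1.67 TPM in any library.

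Huh7, an established line of human hepatocellular carcinoma cells, was profiled by RNA sequencing in 3 control libraries and 3 libraries of FAM111B knockdown cells (shFAM111B). Values of a group are given throughout in the order of replicates 1 to 3. Per the methods, the knockdown was a stable lentiviral short hairpin RNA against FAM111B, the gene of a serine protease. The controls carried a lentiviral control sequence, and infected cells were selected in puromycin. The sources used here do not say whether the 3 libraries of a group came from separate cultures, so p-values measure the spread between these libraries, which may be technical. The Hep3B libraries were not analysed here.

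FAM111B (chr11:59107185-59127410, plus strand) was measured at 7.84, 8.29 and 7.99 TPM in the control libraries and at 0.96, 1.13 and 0.84 TPM in the shFAM111B libraries, a log2 fold change of -2.2 (SE 0.113, adjusted p = 6.09e-06 from limma with Benjamini-Hochberg adjustment). Its level was lower in all 3 shFAM111B libraries, as the labels state. All 9 hepatocyte and hepatoma markers examined had at least 1 TPM in every library, and their summed level was 25300 to 25700 TPM in the control libraries and 39800 to 44900 TPM in the shFAM111B libraries. Summed levels of the fibroblast markers were 9.21 to 11.4 TPM and 14.7 to 20 TPM. Those of the endothelial markers were 1.26 to 2.29 TPM and 2.15 to 3.49 TPM, and those of the leukocyte markers 15.1 to 18.6 TPM and 21.9 to 23.5 TPM. The mitochondrially encoded genes summed to between 196140 and 201464 TPM in control and between 73237 and 78883 TPM in shFAM111B libraries. The part of these marker and mitochondrial differences in the members' values was not tested. TPM divides reads by gene length and scales each library to a fixed total, so a level is a share of the library and holds no sequencing depth. In such bulk samples fewer cells of a type and less RNA per cell cannot be told apart.

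Most mitochondrial proteins are made in the cytosol from nuclear genes and carry signals that direct them to the organelle. They cross the outer membrane through the TOM channel, TOMM40, after contact with the receptors TOMM20, TOMM22 and TOMM70. Proteins with a cleavable presequence then pass the TIM23 channel, are pulled into the matrix by a motor built on the chaperone mtHSP70, and lose the presequence to the peptidase PMPCA/PMPCB. Carrier proteins are escorted across the intermembrane space by small TIM chaperones to the TIM22 complex, barrel proteins go to the sorting and assembly machinery (SAM), and small cysteine-rich proteins are oxidised by CHCHD4 and GFER. Hepatocytes are rich in mitochondria and depend on these routes.

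In shFAM111B cells 4 of 6 small TIM chaperones and the 3 small TOM subunits rose. TOMM5, however, fell under quantile normalization or with the coding length trend removed. The TOM receptors moved apart, with TOMM70 and TOMM20 lower and TOMM22 higher. Of the 38 tested members, 15 rose (39.5%) and 13 fell (34.2%) at an adjusted p under 0.05 from limma on log2(TPM + 1). Among all tested genes, 21.1% rose and 50.9% fell. Among tested protein-coding genes with coding sequences of up to 500 nt, which include the small TIM and TOM genes, 52.3% rose and 22.8% fell. With the study's thresholds of a 2-fold change and P under 0.05, 2 members (5.26%) were called higher, where all tested genes had a share of 6.82%, and 3 (7.89%) were called lower, where that share was 23.7%. The called members were TIMM13 and TIMM8B on the higher side and TIMM23B, its readthrough row TIMM23B-AGAP6 and TOMM70 on the lower side. The 3 control values and the 3 shFAM111B values did not overlap for 29 members (76.3%), a share close to the 75.2% of all tested genes.

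The median member had a log2 fold change of 0.087, with 20 of 38 members above 0 (52.6%). The median of all tested genes was -0.36, with 35.3% of genes above 0, so a member at 0 lay 0.36 above the median gene. No test compared the members with the other genes. The library scaling decided the direction of some members, and each library was therefore also scaled in 4 other ways (median-of-ratios, upper-quartile, quantile and nuclear protein-coding total). Of the 15 members that rose, 14 kept a positive sign under all 4 scalings, the exception being TOMM5. Of the 13 that fell, 8 kept a negative sign (TIMM23B, TIMM23B-AGAP6, TOMM70, MTX3, GRPEL2, TOMM40L, TOMM20 and PMPCB) and 5 did not (TIMM23, TOMM34, TIMM17A, SAMM50 and TIMM22).

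**Figure D1:**
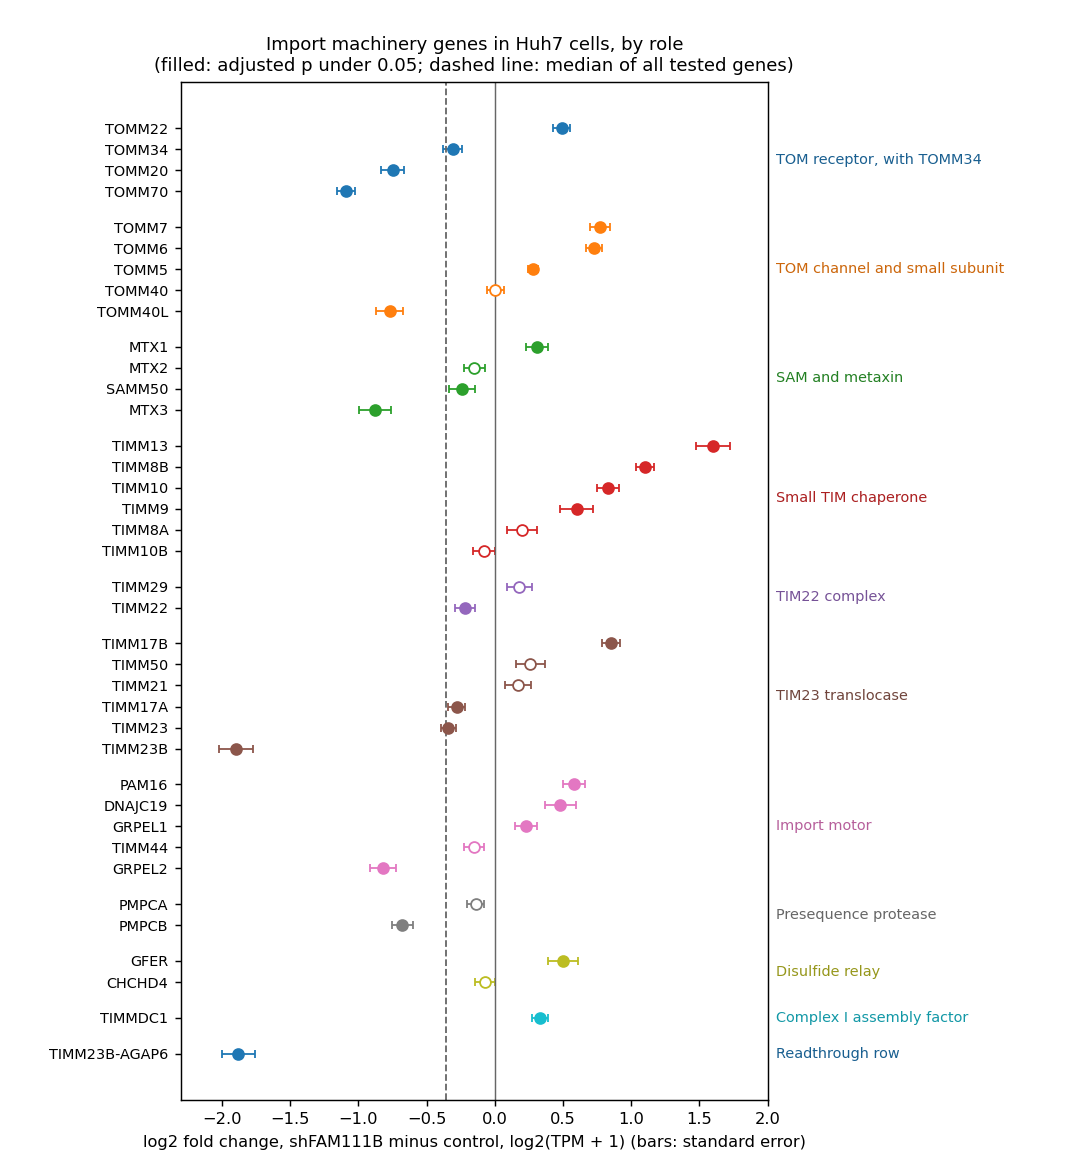
Log2 fold change (shFAM111B minus control, on log2(TPM + 1)) of the 38 tested members, grouped by role, with bars for the standard error, filled circles for an adjusted p under 0.05 and a dashed line at the median of all tested genes (-0.36). TIMM13 at 1.60 and TIMM8B at 1.10 lie farthest to the right, and TIMM23B at -1.90 and TIMM23B-AGAP6 at -1.88 farthest to the left.

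Of the 3 TOM receptors tested, 2 fell and 1 rose. TOMM70 (chr3:100363431-100401398, minus strand), the receptor for carrier proteins that arrive bound to cytosolic chaperones, had 73.4, 69.8 and 65.1 TPM in the control libraries and 30.6, 32.7 and 32.7 TPM in the shFAM111B libraries. Every shFAM111B library lay below the lowest control library, by a margin far larger than the spread within either group. Its level went from 69.4 ± 4.14 to 32.00 ± 1.22 TPM (SD, n = 3; log2 fold change -1.09, SE 0.064, adjusted p = 9.34e-06, limma). TOMM20 (chr1:235109336-235128936, minus strand), the receptor that binds presequences, had 87.2, 89.05 and 79.5 TPM in the control libraries and 46.2, 48.2 and 56.2 TPM in the shFAM111B libraries. Its groups were also apart (log2 fold change -0.75, SE 0.086, adjusted p = 0.000184), and the shFAM111B replicate 3 value was the one nearest to the controls.

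TOMM22, the receptor that links TOMM20 to the channel, moved the other way, with 71.9, 76.3 and 68.4 TPM in the control libraries and 95.8, 105 and 106 TPM in the shFAM111B libraries. All 3 shFAM111B libraries were above the highest control library (log2 fold change 0.49, SE 0.0633, adjusted p = 0.000333). TOMM34, a cytosolic cochaperone of import that is not a membrane receptor, had 39.4, 39.4 and 38.9 TPM in the control libraries and 28.96, 34.2 and 31.2 TPM in the shFAM111B libraries and fell (log2 fold change -0.31, SE 0.0715, adjusted p = 0.00597), although it was higher by 0.13 after median-of-ratios scaling, by 0.09 with upper-quartile scaling and by 0.058 with quantile normalization. TOMM20L, a relative of TOMM20, was not tested and had between 0 and 0.62 TPM.

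The small TOM subunits are short membrane proteins that hold the channel complex together, and they were the most abundant members. TOMM7 had 314, 291 and 282 TPM in the control libraries and 485, 472 and 559 TPM in the shFAM111B libraries. The lowest shFAM111B value was above every control value, and the fold change (log2 fold change 0.77, SE 0.0754, adjusted p = 8.72e-05) kept its sign under the 4 other scalings. TOMM6 had 208, 232 and 214 TPM in the control libraries and 374, 342 and 373 TPM in the shFAM111B libraries, again with groups apart (log2 fold change 0.73, SE 0.0592, adjusted p = 3.46e-05). Each 50-base window of the annotated TOMM6 transcripts also occurs in another annotated gene, AL365205.1, so reads could be split between the 2 and the level of TOMM6 is uncertain. TOMM5 had 581, 580.1 and 574 TPM in the control libraries and 696, 688 and 730.2 TPM in the shFAM111B libraries and rose by a smaller amount (log2 fold change 0.28, SE 0.0399, adjusted p = 0.000528), but its log2 fold change was -0.13 both under quantile normalization and with the coding length trend removed. Overlapping annotated genes share 16.9% of its windows.

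TOMM40, the channel itself, had 122, 126 and 138 TPM in the control libraries and 131, 122 and 135 TPM in the shFAM111B libraries. The groups overlapped throughout and the log2 fold change was 0.004 (SE 0.0639, adjusted p = 0.96), which is 0.37 above the median gene. Its value went below 0 when any of 4 libraries was left out and under 2 of the scalings, but TOMM40 passed on the higher side after median-of-ratios (0.46) and upper-quartile scaling (0.42) and with the trend removed for transcript length (0.45) or coding length (0.36). TOMM40L, the less abundant paralogue of the channel gene, had 18.4, 17.7 and 21.2 TPM in the control libraries and 11.8, 10.5 and 9.99 TPM in the shFAM111B libraries. No shFAM111B value reached the lowest control value (log2 fold change -0.77, SE 0.0988, adjusted p = 0.000328). The summed level of the channel and small subunits was 1240.0 ± 9.16 TPM in control and 1713 ± 86.7 TPM in shFAM111B libraries (SD, n = 3), of which TOMM5 held the largest share.

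**Figure D2:**
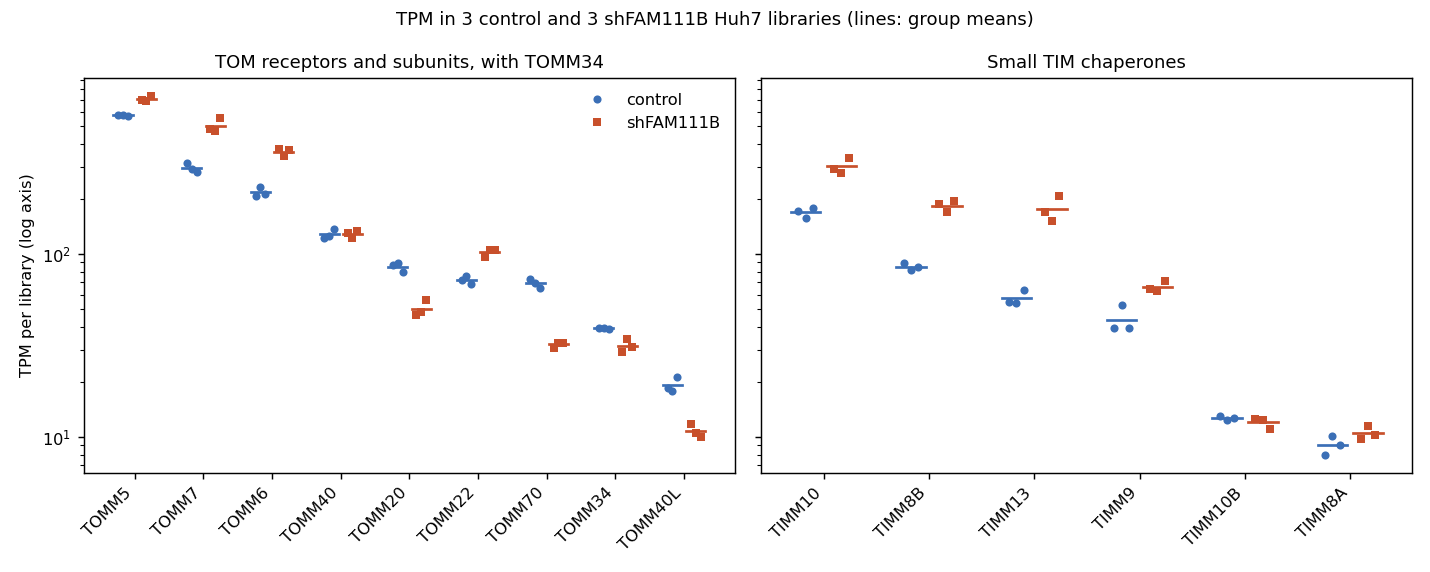
TPM (log axis) of the TOM receptors, channel and small subunits with TOMM34 (left) and of the small TIM chaperones (right) in each of the 3 control (circles) and 3 shFAM111B (squares) libraries, with lines at the group means. TOMM20 and TOMM70 lie lower in all 3 shFAM111B libraries, TOMM22, TOMM6, TOMM7, TIMM8B, TIMM10 and TIMM13 lie higher in all 3, and TOMM40 overlaps.

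The small TIM chaperones are ring-forming proteins of the intermembrane space, each with a pair of twin cysteine motifs whose disulfide bonds fix the fold. Their coding stretches from the first to the last motif cysteine are printed here for all 6 genes, since the group held both members called higher. The sequences are from the longest annotated coding sequence of each gene in GENCODE v29 (GRCh38), read 5′ to 3′ on the coding strand, and the capitals mark the 4 cysteine codons.
TIMM8A: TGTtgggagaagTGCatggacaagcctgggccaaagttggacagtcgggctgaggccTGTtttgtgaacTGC
TIMM8B: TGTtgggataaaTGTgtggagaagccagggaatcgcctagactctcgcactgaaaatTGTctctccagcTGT
TIMM13: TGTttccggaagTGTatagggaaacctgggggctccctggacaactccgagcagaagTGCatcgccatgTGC
TIMM9: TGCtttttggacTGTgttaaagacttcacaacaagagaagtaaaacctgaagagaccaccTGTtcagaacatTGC
TIMM10: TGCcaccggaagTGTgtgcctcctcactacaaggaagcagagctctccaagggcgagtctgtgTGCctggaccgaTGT
TIMM10B: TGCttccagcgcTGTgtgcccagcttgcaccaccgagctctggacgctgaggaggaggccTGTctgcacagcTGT

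These stretches span 72 bases in TIMM8A, TIMM8B and TIMM13, 75 in TIMM9 and TIMM10B, and 78 in TIMM10. Between the motifs lie 14 codons in TIMM8A, TIMM8B and TIMM13, 15 in TIMM9 and TIMM10B, and 16 in TIMM10. TIMM8A and TIMM8B share 43 of the 72 bases (59.7%), whereas TIMM13 shares 38 of 72 (52.8%) with each of them. The 6 coding sequences run from 267 nt in TIMM9 to 309 nt in TIMM10B, among the shortest of the members.

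Of the 6 small TIM genes, 4 rose and 2 did not pass the test. TIMM13 (chr19:2425624-2427894, minus strand), which forms a hexamer with TIMM8A, had 54.4, 53.8 and 63.6 TPM in the control libraries and 169, 151 and 208 TPM in the shFAM111B libraries. Its lowest shFAM111B value lay well above its highest control value. The level went from 57.2 ± 5.49 to 176 ± 28.9 TPM (SD, n = 3; log2 fold change 1.60, SE 0.124, adjusted p = 2.91e-05), the largest rise among the members under the deposited TPM and under each of the 4 scalings. Of its 50-base windows, 10.6% also occur in the neighbouring gene LMNB2. TIMM8B (chr11:112084800-112086798, minus strand) had 89.8, 81.8 and 84.6 TPM in the control libraries and 187, 169 and 196 TPM in the shFAM111B libraries, and the groups were far apart (log2 fold change 1.10, SE 0.0677, adjusted p = 1.13e-05). The log2 fold change of TIMM8B was 0.97 with the nuclear protein-coding total as the scale, just under the 2-fold threshold.

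TIMM10, which carries hydrophobic carriers together with TIMM9, had 172, 158 and 178 TPM in the control libraries and 293, 278 and 336 TPM in the shFAM111B libraries. TIMM9, its partner in the hexamer, had 39.2, 52.4 and 39.2 TPM in the control libraries and 64.4, 62.7 and 71.5 TPM in the shFAM111B libraries. Both rose, TIMM10 with a log2 fold change of 0.83 (SE 0.0814, adjusted p = 8.69e-05) and TIMM9 with 0.60 (SE 0.122, adjusted p = 0.00333). With the coding length trend removed TIMM9 was at 0.14 and did not pass (adjusted p = 0.29). Control replicate 2 was the highest TIMM9 control, and without it the log2 fold change was 0.74. TIMM9 overlaps several genes on the other strand, TOMM20L and KIAA0586 among them.

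TIMM8A, the gene of Mohr-Tranebjaerg deafness-dystonia syndrome, had 7.97, 10.1 and 8.98 TPM in the control libraries and 9.72, 11.5 and 10.2 TPM in the shFAM111B libraries. The groups overlapped (log2 fold change 0.20, SE 0.112, adjusted p = 0.147). TIMM8A passed on the higher side after median-of-ratios scaling (0.61), upper-quartile scaling (0.58) and quantile normalization (0.72) and with the transcript length trend removed (0.54), and was at -0.22 with the coding length trend removed. TIMM10B, which docks the chaperones at the TIM22 complex, had 12.9, 12.4 and 12.7 TPM in the control libraries and 12.6, 12.4 and 10.99 TPM in the shFAM111B libraries and also overlapped (log2 fold change -0.078, SE 0.0816, adjusted p = 0.419). TIMM10B passed on the higher side after median-of-ratios (0.34) and upper-quartile scaling (0.31), under quantile normalization (0.44) and with the transcript length trend removed (0.23). With the coding length trend removed it passed on the lower side (-0.46, adjusted p = 0.00307). Other genes hold 13.4% of the TIMM10B windows and 10.8% of those of TOMM40. The 4 small TIM genes that rose had control means of 43.6 to 169 TPM, and the 2 that did not pass had control means of 9.01 and 12.7 TPM. The summed level of the group went from 377.2 ± 9.29 TPM to 751.4 ± 74.7 TPM (SD, n = 3).

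The TIM22 complex inserts carrier proteins into the inner membrane. TIMM22, its channel, had 14.5, 13.97 and 14.1 TPM in the control libraries and 11.3, 12.1 and 12.7 TPM in the shFAM111B libraries. The groups lay apart by little and TIMM22 fell (log2 fold change -0.22, SE 0.0757, adjusted p = 0.0323), with the opposite sign after median-of-ratios scaling (0.20), upper-quartile scaling (0.16) or quantile normalization (0.29). TIMM22 did not pass the test when any of 5 libraries was left out, with adjusted p-values from 0.0645 to 0.107. TIMM29, a stabilising subunit of the complex, did not pass (log2 fold change 0.18, SE 0.092, adjusted p = 0.115). It passed without control replicate 3 (adjusted p = 0.0275), after median-of-ratios scaling (0.61), upper-quartile scaling (0.57) and quantile normalization (0.67), and with the coding length trend removed (0.35). Summed over both genes, the level was 31.24 ± 1.81 TPM in control and 31.44 ± 1.23 TPM in shFAM111B libraries.

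The TIM23 translocase admits presequence proteins. TIMM23 (chr10:45972449-46003734, plus strand), its channel subunit, had 84.6, 90.5 and 86.2 TPM in the control libraries and 72.02, 65.1 and 69.4 TPM in the shFAM111B libraries. The shFAM111B values were all below the control values and TIMM23 fell (log2 fold change -0.34, SE 0.057, adjusted p = 0.00141), but its log2 fold change was 0.11 after median-of-ratios and 0.074 after upper-quartile scaling. TIMM23B (chr10:49942033-49974850, plus strand), a near copy of TIMM23 elsewhere on the chromosome, had 10.01, 8.51 and 10.4 TPM in the control libraries and 2.05, 1.92 and 1.56 TPM in the shFAM111B libraries. It fell (log2 fold change -1.90, SE 0.126, adjusted p = 1.5e-05). In TIMM23, 17% of the 50-base windows of its transcripts also occur in TIMM23B. In TIMM23B, 6.22% occur in TIMM23, so the split of reads between both is uncertain. Over all other genes, TIMM23 included, the share for TIMM23B is 14.3%. Their summed level was 96.7 ± 2.23 TPM in control and 70.7 ± 3.53 TPM in shFAM111B libraries (SD, n = 3). TPM divides by length and the longest transcripts are 1222 nt in TIMM23 and 2623 nt in TIMM23B, so the sum also depends on the split.

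TIMM23B-AGAP6, a readthrough row that joins TIMM23B to its neighbour, had 5.71, 6.67 and 6.78 TPM in the control libraries and 0.87, 1.1 and 1.03 TPM in the shFAM111B libraries (log2 fold change -1.88, SE 0.123, adjusted p = 1.42e-05). It overlaps TIMM23B by 2088 nt on the same strand and 66.7% of its windows occur in other genes, so it is not independent of the TIMM23B row. Counting it apart leaves 37 tested members with an import or assembly role, of which 15 rose and 12 fell.

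TIMM17A and TIMM17B are paralogues that pair with TIMM23 in alternative forms of the translocase. TIMM17B (chrX:48893447-48898143, minus strand) had 130.5, 129.6 and 137 TPM in the control libraries and 237, 222 and 261 TPM in the shFAM111B libraries. All shFAM111B values exceeded the controls and TIMM17B rose (log2 fold change 0.85, SE 0.0666, adjusted p = 3.01e-05). TIMM17A (chr1:201955491-201970661, plus strand) had 54.2, 58.7 and 53.02 TPM in the control libraries and 43.8, 45.2 and 47.5 TPM in the shFAM111B libraries, with groups apart in the other direction. TIMM17A fell by 0.28 on the log2 scale (SE 0.0618, adjusted p = 0.00549), but was at 0.17 after median-of-ratios and 0.13 after upper-quartile scaling. The other TIM23 subunits did not pass the test. TIMM50, the receptor of the translocase, had a log2 fold change of 0.26 (adjusted p = 0.067), and TIMM21, which links TIM23 to the respiratory chain, 0.17 (adjusted p = 0.143). Without control replicate 2 or shFAM111B replicate 1, TIMM50 passed with adjusted p-values of 0.0194 and 0.0469, and TIMM21 passed without shFAM111B replicate 3 (adjusted p = 0.0169). Both passed on the higher side after median-of-ratios scaling (0.71 and 0.61) and upper-quartile scaling (0.67 and 0.57) and with either length trend removed.

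Of the 5 import motor genes, 3 rose and 1 fell. PAM16, which regulates the J protein of the motor, had 68.1, 66.9 and 76.2 TPM in the control libraries and 107, 97.2 and 115 TPM in the shFAM111B libraries and rose (log2 fold change 0.58, SE 0.08, adjusted p = 0.000465). Its windows are shared with the readthrough gene CORO7-PAM16 for 19.6% of their number. DNAJC19, the J protein that stimulates mtHSP70, had 24.6, 26.6 and 28.9 TPM in the control libraries and 32.2, 38.95 and 42.5 TPM in the shFAM111B libraries and rose (log2 fold change 0.48, SE 0.113, adjusted p = 0.00673). For both genes each shFAM111B value was above the highest control value, although DNAJC19 was at 0.16 and did not pass with the coding length trend removed (adjusted p = 0.194).

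GRPEL1 and GRPEL2 are the nucleotide exchange factors of mtHSP70. GRPEL1, the abundant form, had 60.9, 50.5 and 55.3 TPM in the control libraries and 61.6, 65.2 and 69.1 TPM in the shFAM111B libraries. The groups were barely apart and GRPEL1 rose by 0.23 on the log2 scale (SE 0.0817, adjusted p = 0.0364), a call that was lost when any of 4 libraries was left out, with adjusted p-values from 0.0735 to 0.112, and with the nuclear protein-coding total as the scale (adjusted p = 0.265). GRPEL2, the less abundant form, had 7.92, 7.02 and 7.55 TPM in the control libraries and 3.84, 3.71 and 3.87 TPM in the shFAM111B libraries. Its values within a group were close together and the groups far apart (log2 fold change -0.82, SE 0.0961, adjusted p = 0.000211). TIMM44, the scaffold that tethers mtHSP70 to the channel, did not pass the test (log2 fold change -0.15, adjusted p = 0.11), although its 3 shFAM111B values, 65.6 to 67.9 TPM, all lay below its controls of 70.02 to 82.5 TPM. TIMM44 passed on the lower side with the nuclear protein-coding total (-0.27). It passed on the higher side after median-of-ratios (0.30) and upper-quartile scaling (0.26) and with the coding length trend removed (0.33).

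PMPCA and PMPCB form the peptidase that removes presequences in the matrix. PMPCB, the catalytic subunit, had 83.9, 84.8 and 83.3 TPM in the control libraries and 51.9, 57.6 and 46.9 TPM in the shFAM111B libraries. The controls differed by little, and all 3 shFAM111B values lay far below them (log2 fold change -0.68, SE 0.0776, adjusted p = 0.00018). With the coding length trend removed PMPCB was at -0.17 and did not pass (adjusted p = 0.0828). PMPCA, the substrate-binding subunit, had 89.7, 97.8 and 98.03 TPM in the control libraries and 82.00, 86.02 and 91.3 TPM in the shFAM111B libraries. Its groups overlapped (log2 fold change -0.14, adjusted p = 0.0811), and without shFAM111B replicate 3 it passed the test at -0.18 (adjusted p = 0.0394). PMPCA also passed on the lower side with the nuclear protein-coding total (-0.26). It passed on the higher side after median-of-ratios (0.31) and upper-quartile scaling (0.27) and with the transcript (0.29) or coding (0.41) length trend removed.

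The SAM complex inserts barrel proteins into the outer membrane. SAMM50, its channel, had 41.2, 44.7 and 42.9 TPM in the control libraries and 32.01, 36.2 and 40.7 TPM in the shFAM111B libraries. SAMM50 fell by 0.24 on the log2 scale (SE 0.0924, adjusted p = 0.0493), but was at 0.20 after median-of-ratios scaling, 0.16 with upper-quartile scaling and 0.096 with quantile normalization. This was the call nearest to the threshold, and it was lost when any of 5 libraries was left out (adjusted p from 0.0716 to 0.137).

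MTX1, a metaxin of the complex, had 68.2, 71.8 and 71.7 TPM in the control libraries and 89.9, 78.1 and 95.9 TPM in the shFAM111B libraries and rose (log2 fold change 0.31, SE 0.0801, adjusted p = 0.0106), with 15.5% of its windows shared with the pseudogene MTX1P1. MTX2, its partner, had 50.01, 51.5 and 55.3 TPM in the control libraries and 47.4, 50.9 and 42.9 TPM in the shFAM111B libraries. The groups overlapped (log2 fold change -0.15, adjusted p = 0.118), and MTX2 passed the test without shFAM111B replicate 2 (-0.21, adjusted p = 0.0468). MTX2 also passed on the lower side with the nuclear protein-coding total (-0.28), and on the higher side after median-of-ratios (0.30) and upper-quartile scaling (0.26). MTX3, the third metaxin, had 11.1, 12.2 and 10.1 TPM in the control libraries and 4.94, 6.24 and 5.6 TPM in the shFAM111B libraries and fell (log2 fold change -0.88, SE 0.115, adjusted p = 0.000378). The summed level of the group was 176.9 TPM in both conditions, with an SD of 5.57 TPM in control and 7.29 TPM in shFAM111B libraries.

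In the disulfide relay of the intermembrane space, GFER, the oxidase that recharges CHCHD4, had 50.5, 49.7 and 54.5 TPM in the control libraries and 71.2, 64.2 and 85.9 TPM in the shFAM111B libraries. The groups were apart and GFER rose (log2 fold change 0.50, SE 0.107, adjusted p = 0.00434), with shFAM111B replicate 3 as the highest value. An unstranded count could not separate GFER from AC005606.2, an RNA gene on the other strand that overlaps it by 2873 nt, but the labels give a stranded kit and the sources used here do not state the counting setting. CHCHD4, the receptor and oxidoreductase, had 21.2, 20.3 and 22.7 TPM in the control libraries and 20.9, 21.04 and 18.99 TPM in the shFAM111B libraries and overlapped (log2 fold change -0.071, adjusted p = 0.423). CHCHD4 passed on the higher side after median-of-ratios (0.36) and upper-quartile scaling (0.32) and under quantile normalization (0.41). With the coding length trend removed it passed on the lower side (-0.23, adjusted p = 0.0432). TIMMDC1, an assembly factor of respiratory complex I that resembles the TIM17 family, had 66.4, 75.5 and 74.1 TPM in the control libraries and 91.2, 90.1 and 91.3 TPM in the shFAM111B libraries. It rose (log2 fold change 0.33, SE 0.0601, adjusted p = 0.00189), and its 3 shFAM111B values lay close together.

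The level of a gene relative to a partner in the same library does not depend on any scaling that multiplies a library by a factor, apart from the pseudocount. Such ratios were compared for 12 pairs of paralogues or partners, with an exact two-sided permutation test over the libraries. The smallest p that 3 libraries against 3 can give is 0.1, so no pair could pass 0.05. In 10 of the 12 pairs the groups did not overlap, 6 with a higher and 4 with a lower ratio in shFAM111B cells. Each of these had the smallest p (exact permutation p = 0.1, 0.12 after Benjamini-Hochberg adjustment over the 12 pairs). For single genes the groups did not overlap in 75.2% of all tested genes. No such share was computed for ratios of other genes, and the pairs were chosen with earlier results of these data known.

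Between the translocase paralogues, the TPM ratio of TIMM17A to TIMM17B was 0.415, 0.453 and 0.387 in the control libraries and 0.185, 0.204 and 0.182 in the shFAM111B libraries. The mean ratio went from 0.418 ± 0.0331 to 0.190 ± 0.0118 (SD, n = 3), with TIMM17B the higher gene in every library. The ratio of TIMM23 to TIMM23B was 8.45, 10.6 and 8.29 in the control libraries and 35.1, 33.9 and 44.5 in the shFAM111B libraries, subject to the shared windows given above. The ratio of GRPEL1 to GRPEL2 was 7.69, 7.19 and 7.32 in the control libraries and 16.1, 17.6 and 17.9 in the shFAM111B libraries. In these 3 pairs the log2 ratio of TPM + 1 differed between the groups by -1.13 (SE 0.0825), 1.57 (SE 0.136) and 1.05 (SE 0.0574). Each difference was several times its standard error.

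Among the small TIM genes, the ratio of TIMM8A to TIMM13 was 0.147, 0.188 and 0.141 in the control libraries and 0.0574, 0.0761 and 0.0492 in the shFAM111B libraries. That of TIMM8A to TIMM8B was 0.0887, 0.123 and 0.106 in the control libraries and 0.0519, 0.068 and 0.0523 in the shFAM111B libraries. In both, the log2 ratio was lower in shFAM111B cells, with differences of -1.40 (SE 0.215) and -0.90 (SE 0.176). The coding lengths of the 3 genes lie between 285 and 294 nt, but the longest transcript is 2960 nt in TIMM8A, 1973 nt in TIMM13 and 1155 nt in TIMM8B. With the transcript length trend removed the difference was -1.10 for TIMM8A to TIMM13 and -0.35 for TIMM8A to TIMM8B (exact permutation p = 0.2 for the latter), and quantile normalization gave -0.96 and -0.37. The ratio of TIMM9 to TIMM10 overlapped between the groups, with 0.229, 0.332 and 0.22 in the control libraries and 0.22, 0.226 and 0.213 in the shFAM111B libraries (difference in log2 ratio -0.23, SE 0.187, exact permutation p = 0.2).

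At the outer membrane, the ratio of TOMM40 to TOMM40L was 6.63, 7.13 and 6.51 in the control libraries and 11.1, 11.6 and 13.5 in the shFAM111B libraries. The ratio of TOMM20 to TOMM70 was 1.19, 1.28 and 1.22 in the control libraries and 1.51, 1.47 and 1.72 in the shFAM111B libraries, so TOMM70 was lower relative to TOMM20 in all 3 shFAM111B libraries. The ratio of MTX1 to MTX2 was 1.36, 1.39 and 1.3 in the control libraries and 1.9, 1.53 and 2.23 in the shFAM111B libraries and spread more among the shFAM111B libraries than among the controls. The differences in log2 ratio were 0.78 (SE 0.0866), 0.34 (SE 0.074) and 0.46 (SE 0.157), and that of TOMM20 to TOMM70 was 0.17 with the transcript length trend removed and -0.46 with the coding length trend removed. Under quantile normalization, which is not a factor for each library, the difference for TOMM40 to TOMM40L was 0.21.

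In the matrix and intermembrane space, the ratio of PMPCA to PMPCB was 1.07, 1.15 and 1.18 in the control libraries and 1.58, 1.49 and 1.95 in the shFAM111B libraries. The ratio of CHCHD4 to GFER was 0.42, 0.408 and 0.416 in the control libraries and 0.293, 0.328 and 0.221 in the shFAM111B libraries. The first was higher and the second lower in every shFAM111B library, with differences of 0.55 (SE 0.122) and -0.57 (SE 0.166) in log2 ratio. The ratio of PAM16 to DNAJC19 overlapped, with 2.77, 2.51 and 2.63 in the control libraries and 3.31, 2.49 and 2.7 in the shFAM111B libraries (difference 0.10, SE 0.125, exact permutation p = 0.6), and became -0.011 without shFAM111B replicate 1.

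**Figure D3:**
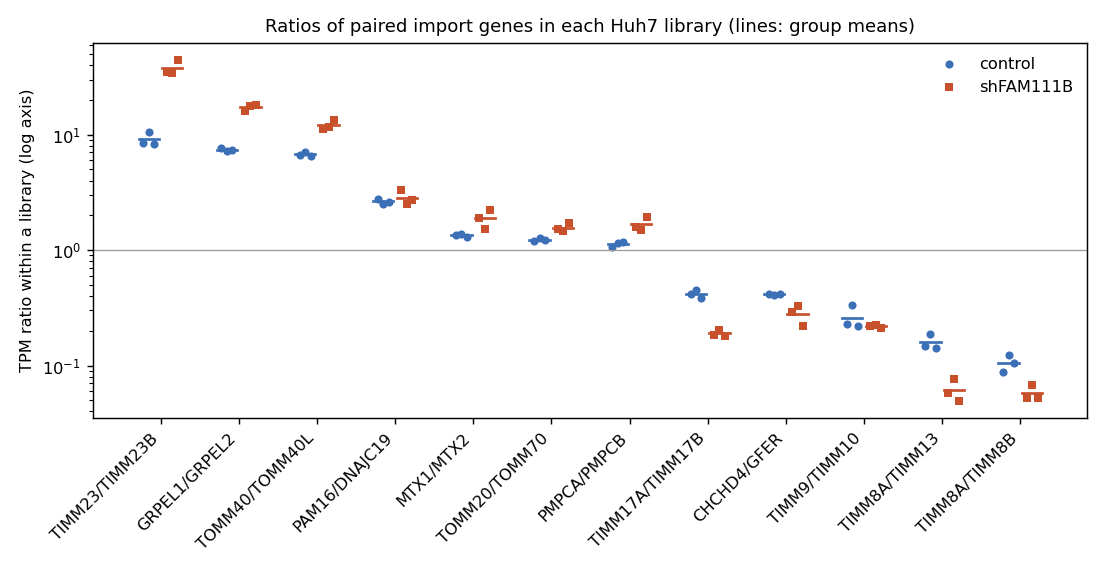
Ratio of TPM within each library (log axis) for 12 pairs of import genes, with 3 control (circles) and 3 shFAM111B (squares) libraries and lines at the group means. TIMM9/TIMM10 and PAM16/DNAJC19 are the 2 pairs in which the groups overlap, and TIMM23/TIMM23B goes from a mean of 9.12 to 37.8.

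Transcript length moved with the fold change across all genes. The median log2 fold change of tested genes was 0.43 for those with a longest transcript of up to 1000 nt, 0.17 from 1000 to 2000 nt, -0.31 from 2000 to 4000 nt and -0.81 above 4000 nt. For the members the medians in these classes were 0.73 (5 genes), 0.48 (9 genes), -0.078 (21 genes) and -0.88 (3 genes), in the same order. The 3 members above 4000 nt were GRPEL2, MTX3 and TOMM70, all of which fell. Across the 38 members, which share the 6 libraries, fold change and log2 length had a Pearson r of -0.341 and a Spearman rho of -0.524, against -0.448 and -0.459 across 14263 tested genes. With coding length the values were -0.499 and -0.558 over 37 members, against -0.372 and -0.372 across 12037 tested protein-coding genes. Of tested protein-coding genes with a coding sequence of up to 500 nt, 52.3% rose and 22.8% fell. Of the 14 members in that class, 71.4% rose and 7.14% fell. The part of length in the members' changes was not tested.

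When the trend with transcript length was removed from each library, the median gene moved to -0.019 and the members' median to 0.22. TIMM13 was then at 1.64, TIMM8B at 0.89, TIMM17B at 0.76 and GFER at 0.67. TIMM10 was at 0.35, TOMM6 at 0.21, TOMM7 at 0.36 and PAM16 at 0.19. On the lower side TIMM23B was at -1.65 and TOMM70 at -0.48, whereas TOMM20 was at -0.32 and GRPEL2 at -0.25. MTX3, with a longest transcript of 7910 nt, and TIMM17A, at -0.052 (adjusted p = 0.477), no longer passed the test. With coding length in place of transcript length, an alternative chosen after the data were seen, TIMM13 was at 1.17, TIMM17B at 0.92, TIMM8B at 0.68 and TIMM10 at 0.37. TOMM34 was at -0.044 and did not pass (adjusted p = 0.61). TOMM20, whose coding sequence of 435 nt is short and whose transcript of 3387 nt is not, was then at -0.95, TOMM70 at -0.49 and TIMM23B at -1.94.

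**Figure D4:**
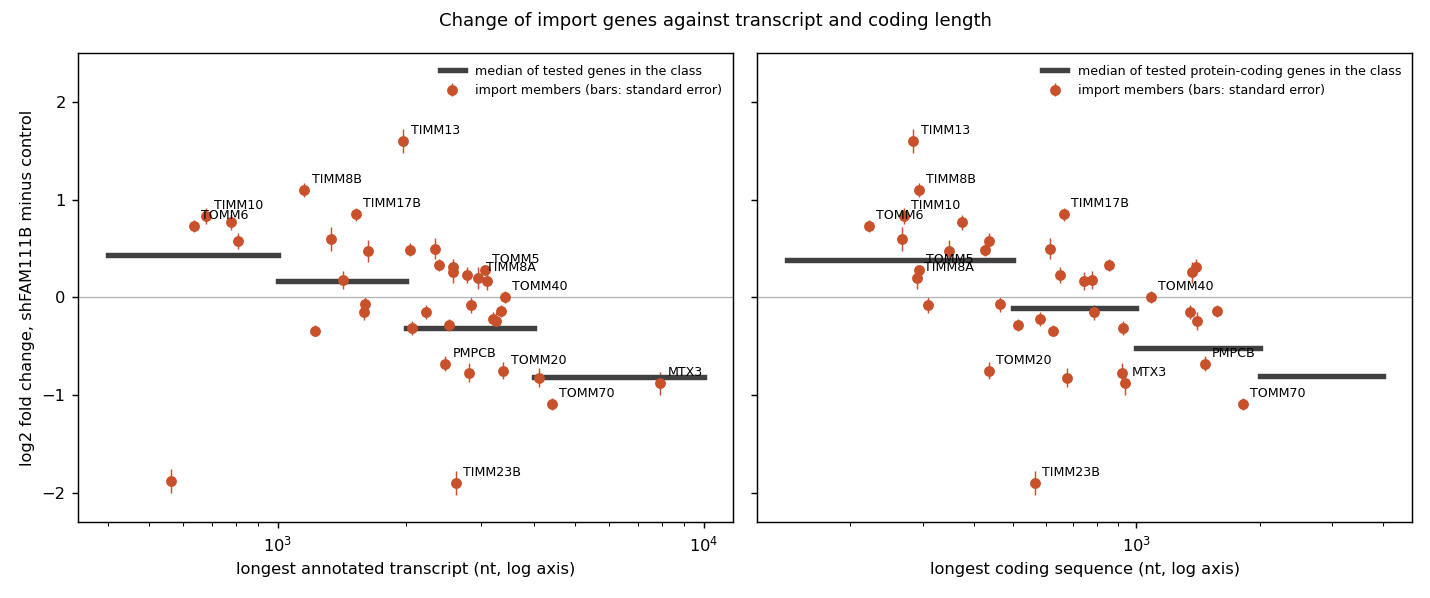
Log2 fold change (shFAM111B minus control) of the members against the length of the longest annotated transcript (left) and of the longest coding sequence (right), in nt on log axes, with bars for the standard error and grey lines at the median of all tested genes (left) or of tested protein-coding genes (right) in each length class. TIMM13 at 1.60 lies above the median of its class in both panels, TIMM23B at -1.90 below it, and MTX3 at -0.88 near the class median of -0.81 on the left.

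A scaling that multiplies each library by a factor moved all members alike. Median-of-ratios and upper-quartile scaling moved them upward, and the nuclear protein-coding total moved them downward. Quantile normalization is not such a factor. The members' median was 0.53 after median-of-ratios scaling, 0.49 after upper-quartile scaling, 0.35 under quantile normalization and -0.036 with the nuclear protein-coding total. TIMM13 ranged from 1.47 to 2.05 over the 4 scalings, TIMM8B from 0.97 to 1.55 and TIMM10 from 0.67 to 1.28. TOMM70 ranged from -1.22 to -0.65, TOMM20 from -0.88 to -0.31 and TIMM23B from -2.08 to -1.50. After median-of-ratios scaling 27 members rose and 8 fell, and after upper-quartile scaling 25 rose and 8 fell. The median of all tested genes was 0.028 and -0.0062 under these scalings, respectively, against -0.36 with the TPM as deposited. The shares of all tested genes that rose or fell under them were not summarised. The counts therefore have no background share, and the shares of the deposited TPM do not apply.

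**Figure D5:**
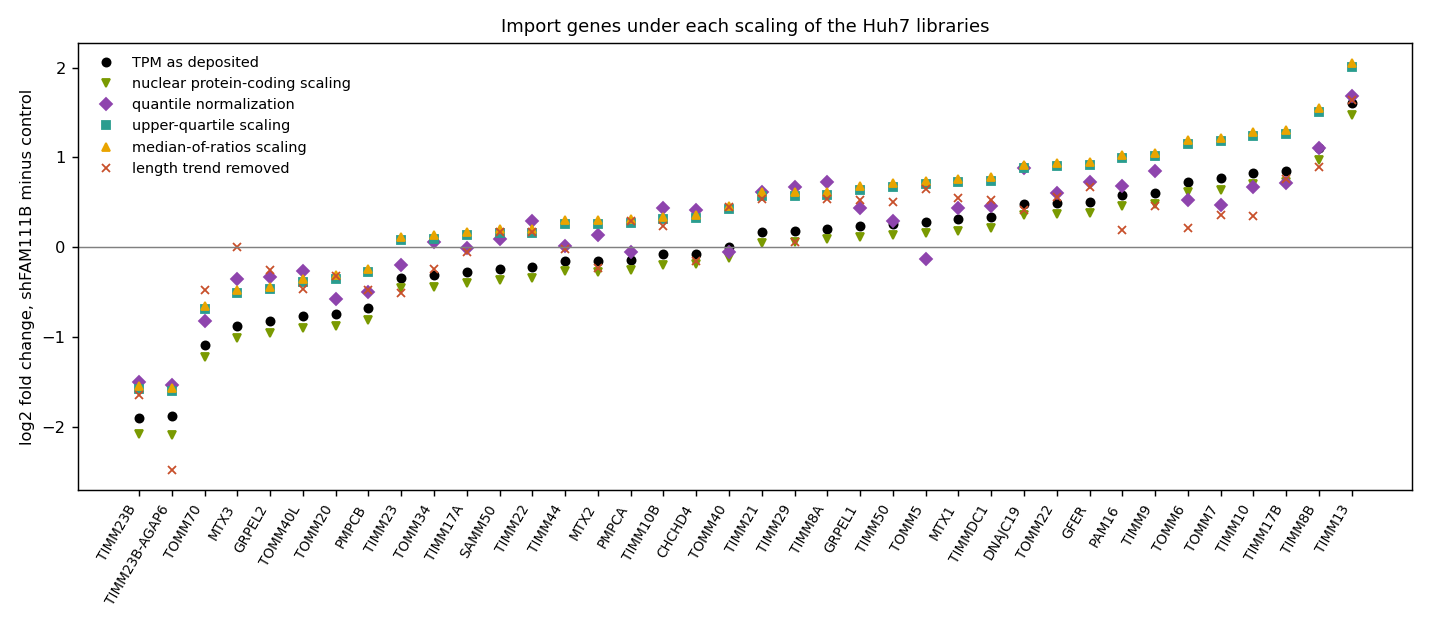
Log2 fold change (shFAM111B minus control) of the 38 tested members with the TPM as deposited, under 4 other scalings of the libraries and with the trend with transcript length removed, ordered by the value with the TPM as deposited. The 8 members at the left, from TIMM23B to PMPCB, are below 0 under every scaling, and those from TIMM23 to TOMM40, with TOMM5, change sign with the scaling.

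Genes that work beside the import machinery formed a list of 33, of which 32 were tested, 11 rose, 15 fell and 6 did not pass, where 21.1% of all tested genes rose and 50.9% fell. The median log2 fold change of the list was -0.11, between that of the members and that of all genes. At 2-fold, 5 were called higher and 5 lower, where the shares of all tested genes were 6.82% and 23.7%. APOOL, a subunit of the cristae-organising MICOS complex, was listed at 0 TPM in all libraries.

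The partners of the inner membrane translocases moved apart. AGK, a lipid kinase that is also a subunit of the TIM22 complex, had 26.9, 25.1 and 25.1 TPM in the control libraries and 7.28, 7.3 and 6.36 TPM in the shFAM111B libraries (log2 fold change -1.74, SE 0.0827, adjusted p = 4.65e-06). ROMO1, a small protein of the TIM23 translocase, had 410.3, 421 and 448 TPM in the control libraries and 1089, 988 and 1292 TPM in the shFAM111B libraries (log2 fold change 1.39, SE 0.0971, adjusted p = 1.87e-05). Neither gene had overlapping groups, and both kept their sign under all 4 scalings. With the transcript length trend removed AGK was at -1.22 and ROMO1 at 0.72, the latter under the 2-fold threshold. COX18, an inner membrane insertase for a cytochrome oxidase subunit, had 10.4, 10.9 and 9.33 TPM in the control libraries and 3.57, 4.23 and 4.23 TPM in the shFAM111B libraries (log2 fold change -1.17, SE 0.109, adjusted p = 6.83e-05). MTCH2, an outer membrane insertase, had 96.7, 90.7 and 99.03 TPM in the control libraries and 209.9, 183 and 223 TPM in the shFAM111B libraries (log2 fold change 1.09, SE 0.0794, adjusted p = 2.2e-05). The fall of COX18 and the rise of MTCH2 were larger than the spread within either group, but with the transcript length trend removed COX18 was at -0.35 and MTCH2 at 1.33.

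IMMP1L, a subunit of the inner membrane peptidase, had 27.7, 25.4 and 18.9 TPM in the control libraries and 41.8, 53.5 and 114 TPM in the shFAM111B libraries (log2 fold change 1.39, SE 0.354, adjusted p = 0.0099), with a spread in the shFAM111B group that came mostly from replicate 3. Without that library the log2 fold change of IMMP1L was 0.97, under the 2-fold threshold. MICOS10, a core MICOS subunit, had 57.4, 69.6 and 59.9 TPM in the control libraries and 202, 197 and 255 TPM in the shFAM111B libraries (log2 fold change 1.79, SE 0.117, adjusted p = 1.43e-05). MICOS10 lay far above its controls in every shFAM111B library.

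Among the mitochondrial quality proteases, YME1L1, which degrades intermembrane space proteins, had 104, 100.3 and 94.3 TPM in the control libraries and 28.7, 29.99 and 24.7 TPM in the shFAM111B libraries (log2 fold change -1.81, SE 0.0825, adjusted p = 4.25e-06). AFG3L2, of the matrix-facing inner membrane protease, had 92.04, 91.7 and 87.3 TPM in the control libraries and 38.1, 37.1 and 34.5 TPM in the shFAM111B libraries (log2 fold change -1.28, SE 0.0575, adjusted p = 4.11e-06). Both membrane proteases were lower in all 3 shFAM111B libraries. With the transcript length trend removed YME1L1 was at -1.24 and AFG3L2 at -0.85, and with the coding length trend removed they were at -1.12 and -0.59. CLPP and CLPX, the peptidase and the unfoldase of the same matrix protease, moved in opposite directions. CLPP had 43.1, 38.5 and 36.8 TPM in the control libraries and 93.2, 90.5 and 134 TPM in the shFAM111B libraries (log2 fold change 1.38, SE 0.154, adjusted p = 0.000163). CLPX had 52.3, 42.95 and 41.1 TPM in the control libraries and 12.8, 14.6 and 11.3 TPM in the shFAM111B libraries (log2 fold change -1.74, SE 0.123, adjusted p = 1.94e-05). The longest transcript of CLPP is 1346 nt and that of CLPX 4695 nt, and with the length trend removed they were at 1.24 and -1.09.

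Of the matrix chaperones, HSPA9 (the mtHSP70 of the motor) and HSPD1 fell, with log2 fold changes of -0.46 (adjusted p = 0.000624) and -0.48 (adjusted p = 6.38e-05), and HSPE1 and DNAJC15 rose, with 0.54 (adjusted p = 3.66e-05) and 0.85 (adjusted p = 0.000372). HSPE1 and HSPD1, the co-chaperonin and chaperonin, are neighbouring genes on chromosome 2. All 4 kept their sign under the 4 scalings, HSPA9 with values as near to 0 as -0.0055. The sign of HSPA9 reversed with the transcript length trend removed (0.19) or the coding length trend removed (0.18), and that of HSPD1 with the latter (0.10).

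Promoter sequences from RefSeq (GRCh38.p14), the 250 bases before the annotated start, were found for 35 of the 38 tested members and searched on both strands for a pair of motifs that occur in many nuclear genes of mitochondrial proteins. The ETS motif CCGGAAG was in 14 of the 35 (40%), against 16.5% of 10126 promoters of tested genes and 8.82% of all 27305 promoters. It was in 4 of the 12 members that rose and in 8 of the 13 that fell. The symbols TIMM23B and TIMM23B-AGAP6 have the same promoter sequence, which is counted for both in the 14 and in the 8. The TIMM23B-AGAP6 row starts at chr10:49972763 in GENCODE v29, so that sequence does not lie directly before it. The NRF1 motif, the letters GCGCA and GCGC separated by any base, was in 7 of the 35 (20%), against 10.7% and 5.53%. Neither motif contains the other, and both were chosen after the values had been seen. The GC content of the members' promoters had a median of 63.6%, against 58% for all promoters.

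The ETS match nearest to the start is shown with up to 10 bases on either side for 3 members that fell (TOMM70, TOMM20 and TIMM23B), for 2 that rose (TIMM13 and TIMM10) and for TIMM23, the near copy of TIMM23B. The sequences are read 5′ to 3′ on the strand of the gene, and the capitals mark the match, which is CTTCCGG where it lies on the other strand. A match is a description of these letters and was not tested as a site. GENCODE v29 places longer 5′ ends on TOMM70, TOMM20, TIMM13 and TIMM10, so their windows lie inside its gene spans.
TOMM70 (chr3:100401092-100401118, minus strand): atgccctgggCTTCCGGtgacctctgg
TOMM20 (chr1:235128843-235128869, minus strand): ttgactgggaCCGGAAGtggcgtgtgc
TIMM23B (chr10:49942001-49942027, plus strand): gcgcttccggCTTCCGGggcgcacact
TIMM23 (chr10:45972431-45972457, plus strand): gcgcttccagCTTCCGGggcgcacatt
TIMM13 (chr19:2427587-2427606, minus strand): gggcggcccgCTTCCGGcgc
TIMM10 (chr11:57530755-57530777, minus strand): gactttcctcCCGGAAGtaaccc

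The match ended 12 bases before the start in TOMM70, 15 in TOMM20, 3 in TIMM13 and 6 in TIMM10. Some members that rose and some that fell thus held it close to the start. In TOMM6 and TIMMDC1, which also rose, the nearest match ended 73 and 69 bases before the start. In GRPEL2, PMPCB and MTX3, which fell, it ended 59, 10 and 1 bases before it. TIMM23 held 1 match, which ended 41 bases before the start. TIMM23B held 2 adjacent matches, the nearer of which ended 35 bases before the start, and only that match is in capitals above.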

How the data were processed

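RNA was sequenced from Huh7 control and shFAM111B cells (3 libraries each of the 12 samples in the series). The paper names a TruSeq kit, and the labels name poly(A) selection and a stranded mRNA kit. Values were deposited by the authors as TPM per library with group means. Their own comparison (a fold change as a ratio, the log2 of it, raw and adjusted p-values) was deposited in the same table and was not used. The submitters' processing notes name RSEM, DESeq2 and hg38, with no versions. No counts were used, so depth is unknown and values carry no counting error.

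Log2(TPM + 1) of the 14394 genes that reached 1 TPM in 3 or more libraries was compared with limma 3.58.1 (R 4.3.3, lmFit and eBayes with trend, no covariates) with Benjamini-Hochberg adjustment over all tested genes. The pseudocount of 1 understates changes of low genes. Fold changes are shFAM111B minus control, and SE is the moderated standard error. Rose and fell mean an adjusted p under 0.05. Called means a fold of at least 2 with P under 0.05. Ratios of pairs were tested over libraries with exact permutation under Python 3.11.15 (numpy 2.4.6, pandas 2.3.3, matplotlib 3.10.9). Correlations with length were computed with scipy 1.17.1. Length trends were removed with loess (span 0.75). Positions, lengths, coding sequences and shared windows of 50 bases were taken from GENCODE v29 (GRCh38), which matched 58420 of 60666 identifiers (96.3%). The fit was tested on simulated data for this comparison, in which 181 of 200 changed genes among 14394 and 5 unchanged genes passed. Raised genes there had a median estimated log2 change of 1.50. The simulation held no shift across most genes, as these data do, and so does not bear on it or on smaller changes. No library pair shared more than 0.889% of identical values.

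Alternatives were no filter, a pseudocount of 0.1, a replicate block, leaving out each library, 4 scalings, removal of the length trends and adjusted calls. The members, roles, pairs, partner genes and alternatives were chosen with earlier results of these data known. All members are named, with values in every library for those called or in a pair and for others that are described, and partner genes are named where called, with the matrix chaperones and APOOL added after their values were seen.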

Additional observations from a re-analysis of the deposited data

How the results depend on the processing

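Leaving out each library in turn gave 14 to 16 members higher, 11 to 14 lower, 2 called higher and 3 called lower, and a members' median of 0.045 to 0.11 against 0.087. With median-of-ratios scaling 27 members rose, 8 fell and 8 were called higher, with 2031 genes called higher and 1799 lower in all and a median of 0.53. With upper-quartile scaling these were 25, 8, 7, 1899, 1910 and 0.49. The median of all tested genes was 0.028 with median-of-ratios and -0.0062 with upper-quartile scaling, against -0.36 for deposited TPM. Quantile normalization gave 1694 and 1849 calls over all genes and a median of 0.35. The nuclear protein-coding total gave 1 member called higher and a median of -0.036. Removing the transcript length trend gave 1 member called higher, 1415 genes called lower and a median of 0.22, and removing the coding length trend, an alternative added after seeing the data, 1 called higher, 1 called lower, 1243 genes called lower and a median of 0.17. With the TPM as deposited 981 genes were called higher and 3409 lower. The higher share of all calls was 22.3% for deposited TPM, 53.0%, 49.9%, 47.8% and 17.3% under the 4 scalings in this order, and 49.6% and 47.2% with the length trends removed. The cause of these shifts was not tested.

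Signs reversed as follows. MTX2, TIMM10B, TIMM44, PMPCA and CHCHD4, which had not passed with the deposited TPM, passed on the higher side after both median-of-ratios and upper-quartile scaling. TIMM17A and TIMM22, which had fallen, passed on the higher side after median-of-ratios scaling, TIMM22 also under quantile normalization. SAMM50, which had fallen, passed on the higher side with the coding length trend removed. TOMM5, which had risen, passed on the lower side with that trend removed and under quantile normalization. After median-of-ratios and upper-quartile scaling, respectively, TOMM34 was at 0.13 and 0.09, MTX2 at 0.30 and 0.26, SAMM50 at 0.20 and 0.16, TIMM10B at 0.34 and 0.31, TIMM22 at 0.20 and 0.16, TIMM17A at 0.17 and 0.13, TIMM23 at 0.11 and 0.074, TIMM44 at 0.30 and 0.26, PMPCA at 0.31 and 0.27, and CHCHD4 at 0.36 and 0.32. Under quantile normalization TOMM34 was at 0.058, TOMM40 at -0.052, TOMM5 at -0.13, MTX2 at 0.13, SAMM50 at 0.096, TIMM10B at 0.44, TIMM22 at 0.29, TIMM44 at 0.01 and CHCHD4 at 0.41, and the log2 ratios of TIMM9/TIMM10 and PAM16/DNAJC19 at 0.18 and -0.20. With the nuclear protein-coding total TOMM40 was at -0.12. Without the transcript length trend SAMM50 was at 0.17, TIMM10B at 0.23, TIMM22 at 0.17, PMPCA at 0.29, TIMM9/TIMM10 at 0.11 and PAM16/DNAJC19 at -0.22. Without the coding length trend TOMM5 was at -0.13, MTX2 at 0.023, SAMM50 at 0.25, TIMM8A at -0.22, TIMM44 at 0.33, PMPCA at 0.41 and TOMM20/TOMM70 at -0.46. TOMM40 lay between -0.033 and 0.054 with each library left out, and PAM16/DNAJC19 between -0.011 and 0.19. The cause was not tested.

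Replicate numbers were not used as pairs in the main comparison. The deviations of same-numbered control and shFAM111B libraries from their group means correlated at 0.054, 0.0349 and 0.0908, and those of differently numbered libraries at -0.0763 to 0.0442. For shFAM111B replicate 2 the correlation was higher with control replicate 1 (0.0442). With a replicate block 14 members were higher and 12 lower, TIMM22 (adjusted p = 0.07) and GRPEL1 (adjusted p = 0.0585) no longer passing. Without a filter 14 were higher and 12 lower, and with a pseudocount of 0.1 15 and 12. Requiring an adjusted p for the 2-fold calls left 2 higher and 3 lower. TPM hold no depth, and 3 libraries a group limit the precision.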

Other observations

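Rows left out of the comparisons of import genes were low. Of the 40 pseudogene rows that matched the symbols, 30 were listed at 0 TPM in all 6 libraries. The summed level of the 40 was 3.66 to 7.71 TPM in the control libraries and 0.84 to 2.22 TPM in the shFAM111B libraries, and no pseudogene row exceeded 3.81 TPM in a library. TIMMDC1-DT, a transcript divergent from TIMMDC1, had 0, 0.87 and 0 TPM in the control libraries and 0.34, 1.67 and 1.13 TPM in the shFAM111B libraries. SAMMSON, a long noncoding RNA whose symbol begins like that of SAMM50 but which encodes no subunit, had at most 0.15 TPM. GRPEL2-AS1 was listed at 0 TPM in all libraries.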
